A study of Mus musculus with 217 samples.

Results

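The lung endothelium was examined 72 hr after lipopolysaccharide (LPS, a bacterial cell wall component that starts systemic inflammation) for what remained of the inflammatory response and for genes of repair. The members are the lung libraries labelled 72 hr and 0 hr in which at least 3% of the reads fell on genes, with the sequencing runs of a library summed. This left 4 libraries at 72 hr (replicates 1, 2, 3 and 5) and 4 at 0 hr (replicates 1, 2, 3 and 4), which are 8 of the 98 libraries of the series. Replicate 4 at 72 hr and replicate 5 at 0 hr were left out, with 2.24% and 2.22% of reads on genes.

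All mice were adult C57BL/6J of the genotype Cdh5CreERT2/+; Rpl22HA/+ and had received tamoxifen, 5 mg by gavage on 4 occasions from the age of 4 to 6 weeks. Tamoxifen activates a Cre recombinase driven by the promoter of Cdh5 (VE-cadherin), and Cre then switches on an HA tag on the ribosomal protein Rpl22, so that only cells in which Cre was active carry tagged ribosomes. The 72 hr mice had received LPS at 10 mg/kg into the peritoneum, and the 0 hr mice are the labelled controls without LPS. RNA bound to tagged ribosomes was pulled down from homogenised whole lung with an antibody to HA and sequenced, and the term RiboTag EC is used for these libraries. The labels do not say which libraries come from separate mice, so the p-values measure the spread between libraries.

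As background, LPS binds Toll-like receptor 4 and sets off NF-kappaB and interferon signalling in ECs, which then display adhesion molecules, release chemokines that draw in leukocytes, and lose part of their anticoagulant surface. Interferon gamma adds guanylate-binding proteins, immunity-related GTPases and MHC molecules. After injury the lung capillary bed is rebuilt largely by division of resident ECs, whose general capillary cells act as progenitors, beside large thin aerocytes that serve gas exchange.

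Gene counts were 3666859 to 43417945 per library at 0 hr and 5466202 to 35803068 at 72 hr, and the share of reads on genes was 18.8 to 56.2% and 12.5 to 31.4%. Replicate 4 at 0 hr stood apart, with the largest of these shares, and replicate 1 at 72 hr had 43.7% of its counts in 10 genes. The summed level of 20 endothelial markers was 11976 to 18576 counts scaled to 1000000 per library (CPM) at 0 hr and 12367 to 17300 CPM at 72 hr, with none of them at 0 in all libraries, so endothelial RNA was present. Whole lung was not compared, so enrichment over it was not tested here. The median log2 fold change of these 20 markers at 72 hr was -0.50, and 7 of them had a positive value. Markers of other lung cells were also present: 13 markers of alveolar type II cells summed to 1741 to 9217 CPM at 0 hr and 2367 to 8173 CPM at 72 hr. The labels give no sex. Xist, transcribed from the inactive X chromosome, was above the Y-linked Ddx3y in every 72 hr library but in only replicate 4 of the 0 hr libraries, so that sex and time cannot be told apart beyond that replicate.

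At 72 hr the genes that rose with the lowest p were stefin A genes, Gm19951, Retnlg and Il1r2, and S100a8, Mmp9, Pla2g7, Ackr1 and Uhrf1 were also among those that rose. In edgeR's quasi-likelihood test over 17058 genes, 29 genes were higher at 72 hr than at 0 hr (0.17% of genes tested) and 4 were lower (0.0234%) at an adjusted p under 0.05. In the 8 libraries the 14 neutrophil markers together summed to 39.1 to 185 CPM at 0 hr and 673 to 1436 CPM at 72 hr with no overlap, and none of the 14 was at 0 in all libraries. The part that neutrophil RNA has in these changes was not tested. In bulk RNA, a change in the number of cells of a type and a change in RNA per cell cannot be told apart. With the sex of the library as a further covariate, 26 of the 33 genes passed. Ddx3y, Ankrd63, Ifitm6, Itgam, Apod, Il10 and Trem1 did not. Libraries with Xist above Ddx3y stood beside others only at 0 hr (1 of 4, replicate 4) and 6 hr (2 of 4). The sex term rests on these libraries, because at the other times all libraries were alike in this. Whether a gene that passed is free of an effect of sex was therefore not tested.

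The 5 leading genes by adjusted p lie in the stefin A cluster on chromosome 16, whose products inhibit cysteine proteases of lysosomes. Stfa2 (chr16:36403992-36408457, mm10) had no count in any 0 hr library and was at 44.0, 52.7, 15.7 and 19.1 CPM in 72 hr replicates 1, 2, 3 and 5, in that order here and throughout. Against the limit that 3 counts over the 0 hr group allow, the mean of these is at least 963-fold higher, and at least 465-fold without 0 hr replicate 3, the deepest library, with an adjusted p of 0.000132. Stfa1 and Stfa3 were likewise at 0 in all 0 hr libraries and were at least 587-fold and 639-fold higher, and at least 283-fold and 308-fold without that library. Stfa2l1, which had some counts at 0 hr, was at 0, 0.646, 0.615 and 0.222 CPM at 0 hr and 37.4, 49.4, 14.7 and 19.9 CPM at 72 hr, a log2 fold change of 6.45 ± 0.91 SE. The stefin A genes are near-identical copies, so that the division of reads among Stfa1, Stfa2, Stfa3, Stfa2l1, BC100530 and Gm5483 is uncertain. An antisense gene also shares 145 bases of the exons of BC100530, and the strand setting of the counting is not given in the sources used here. All 6 remained past the threshold in each of the 22 alternative analyses, as did Gm19951, Il1r2 and Pla2g7.

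S100a8, a calcium-binding subunit of calprotectin, was at 18.8, 16.5, 43.2 and 4.33 CPM in 0 hr replicates 1, 2, 3 and 4 and at 331, 518, 221 and 448 CPM at 72 hr. The lowest 72 hr library was above the highest 0 hr library, and the log2 fold change was 4.62 ± 0.92 SE, adjusted p = 0.0186. The call held in 3 of the 8 fits without a library. Its partner S100a9 was at 46.9, 44.4, 100.3 and 10.4 CPM at 0 hr and 545, 618, 344 and 650.0 CPM at 72 hr, and with an adjusted p of 0.0681 it did not pass. Retnlg, a resistin-like hormone of myeloid cells, was at 4.45, 9.88, 2.88 and 2.17 CPM at 0 hr and 166, 127, 44.7 and 76.7 CPM at 72 hr (log2 fold change 4.45 ± 0.68 SE, adjusted p = 0.000646). Mmp9, a gelatinase that cleaves basement membrane collagen, was at 0.703, 0.894, 1.23 and 0.611 CPM at 0 hr and 12.1, 14.2, 5.36 and 5.86 CPM at 72 hr. Its log2 fold change was 3.50 ± 0.66 SE, adjusted p = 0.00919, but it lost the call without 0 hr replicate 2 or replicate 3. Pglyrp1, Itgam, Trem1, Tarm1, Clec4a1, Prok2 and Ifitm6, which are known from myeloid cells, also rose, each with every 72 hr library above every 0 hr library. Of the 8 fits without a library, Pglyrp1 and Tarm1 held in 7, Prok2 in 4, Itgam, Clec4a1 and Ifitm6 in 3 and Trem1 in none. The exons of Itgam share 3450 bases with another gene on the same strand.

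**Figure D1:**
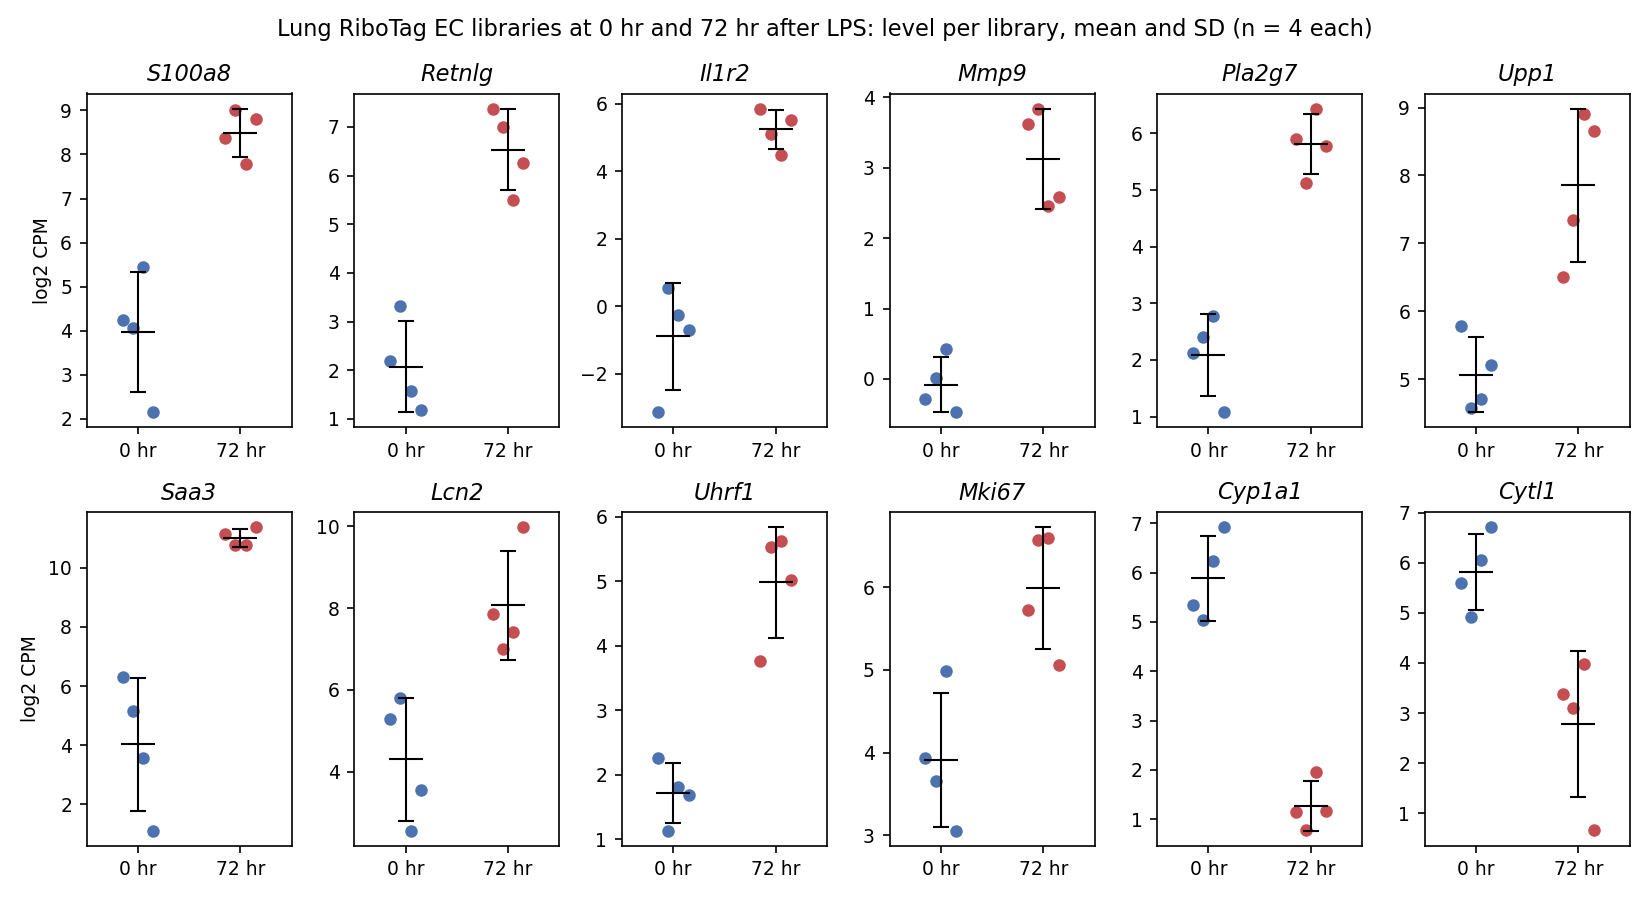
Level per library as log2 CPM (prior count 2) of 12 genes in the lung RiboTag EC libraries at 0 hr (blue) and 72 hr (red), with the mean and SD of 4 libraries each. In all 12 panels the groups do not overlap; Saa3, Lcn2 and Mki67 did not pass the threshold over all genes.

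Il1r2, a decoy receptor that binds interleukin-1 without signalling (chr1:40074079-40125231), was at 0, 1.34, 0.725 and 0.5001 CPM at 0 hr and 57.9, 34.2, 22.5 and 45.6 CPM at 72 hr. It was higher in 4 of 4 libraries, with a log2 fold change of 5.77 ± 0.95 SE and an adjusted p of 0.00151. Pla2g7, the secreted hydrolase that inactivates platelet-activating factor (chr17:43568098-43612201), was at 4.22, 5.17, 6.70 and 2.00 CPM at 0 hr and 59.5, 34.9, 86.4 and 54.6 CPM at 72 hr, a log2 fold change of 3.83 ± 0.64 SE, adjusted p = 0.00208. A gene on the opposite strand shares 319 bases of its exons, and the strand setting of the counting is not given in the sources used here. Il10, the anti-inflammatory cytokine, had no count at 0 hr and was at 2.12, 3.45, 1.73 and 2.56 CPM at 72 hr, at least 72.2-fold higher by the limit of 3 counts and at least 34.8-fold without 0 hr replicate 3 (adjusted p = 0.0407). Acod1, which makes the immunomodulator itaconate, was at 0.234, 0, 0.330 and 0.278 CPM at 0 hr and 10.6, 8.44, 4.49 and 12.2 CPM at 72 hr (adjusted p = 0.00995). Acod1 kept its call in 5 of the 8 fits without a library, while Il10 and Trem1 lost theirs whichever of the 8 libraries was left out.

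Ackr1, a receptor of venular ECs that binds chemokines without signalling, was at 0.703, 0.546, 0.154 and 1.39 CPM at 0 hr and 7.18, 2.38, 11.1 and 27.2 CPM at 72 hr, a log2 fold change of 3.78 ± 0.79 SE with an adjusted p of 0.0266. All 4 libraries at 72 hr exceeded the 0 hr libraries, but the call held in only 1 of the 8 fits without a library. Upp1, which breaks down uridine, was at 55.1, 23.7, 26.0 and 36.8 CPM at 0 hr and 90.7, 163, 480.1 and 403 CPM at 72 hr (log2 fold change 2.82 ± 0.59 SE, adjusted p = 0.0266). Here too the groups did not overlap, and 72 hr replicates 3 and 5 lay well above replicates 1 and 2. Pla1a, a phospholipase, was at 0 to 0.703 CPM at 0 hr and 5.09 to 16.5 CPM at 72 hr, and Apod, a lipid-binding lipocalin, at 1.41 to 2.88 CPM at 0 hr and 7.43 to 180.2 CPM at 72 hr. Fkbp11, a folding enzyme of the endoplasmic reticulum, rose from 3.00 to 12.7 CPM to 29.7 to 86.5 CPM (log2 fold change 2.85 ± 0.59 SE, adjusted p = 0.0247). Upp1 and Fkbp11 held their calls in 1 and 2 of the 8 fits without a library. Rps19, a protein of the small ribosomal subunit for which processed copies in the genome can share reads, was at 11.6 to 46.2 CPM at 0 hr and 118 to 283 CPM at 72 hr (adjusted p = 0.0389). Apod and Rps19 each held in 2 of the 8 fits, and 361 bases of the exons of Ackr1 are shared with a gene on the same strand.

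Of the 4 genes that fell, Cyp1a1 (chr9:57687928-57703824), a monooxygenase induced by the aryl hydrocarbon receptor, went from 40.3, 32.8, 74.7 and 121 CPM at 0 hr to 2.12, 1.61, 3.80 and 2.14 CPM at 72 hr. Its log2 fold change was -4.70 ± 1.00 SE, adjusted p = 0.0311, and the 2 groups were far apart. Ankrd63, an ankyrin repeat protein, was at 109, 180.2, 369 and 100.4 CPM at 0 hr and 13.0, 17.5, 12.6 and 7.45 CPM at 72 hr (log2 fold change -3.80 ± 0.72 SE, adjusted p = 0.00992). Cytl1, a small secreted protein, was at 48.1, 30.1, 66.4 and 104 CPM at 0 hr and 10.3, 8.44, 15.7 and 1.47 CPM at 72 hr (log2 fold change -2.75 ± 0.62 SE, adjusted p = 0.0493). Ddx3y is Y-linked and was at 143, 173, 190.4 and 0 CPM at 0 hr and 0.0920, 0.0993, 0.346 and 1.22 CPM at 72 hr, low in the same libraries in which Xist exceeded it. Without 1 library, Cyp1a1 kept its call in 1 of 8 fits, Ankrd63 in 4 and Cytl1 in none, while all 3 stayed lower in value.

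To describe inflammation and repair beyond these genes, 23 lists were followed, 12 of inflammation with 280 genes tested and 11 of repair with 304. S100a8, Retnlg, Il10, Acod1 and Trem1, which passed the threshold as described above, are on none of these lists. Of the list genes, only Il1r2 of inflammation and Uhrf1, Mmp9 and Ackr1 of repair passed, all higher. The lists are therefore described by their fold changes, by whether the groups overlap, and by unadjusted p. Over all genes tested, the median log2 fold change was -0.04, 4.48% of genes had every 72 hr library above every 0 hr library and 3.1% had every one below, and an unadjusted p under 0.05 was met by 4.09% with higher and 3.1% with lower levels. In libraries with at least 10% of reads on genes, which removes 3 libraries at 6 hr and 1 at 48 hr but none at 0 hr or 72 hr, the common dispersion was 0.407 in place of 0.580 and the calls were 129 higher (0.675%) and 54 lower (0.282%) of 19124 genes. These included all 33 calls above, and 10 inflammation and 19 repair genes. The second adjusted p values given below come from this fit, with the same 0 hr and 72 hr libraries and the smaller dispersion. Other alternatives differed. For adhesion molecules and general capillary markers, DESeq2, limma-voom, ComBat and the 0 hr and 72 hr libraries alone gave no call. A fit of all 3 tissues gave 1 adhesion molecule higher and 1 lower, and 3 general capillary markers lower.

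**Figure D2:**
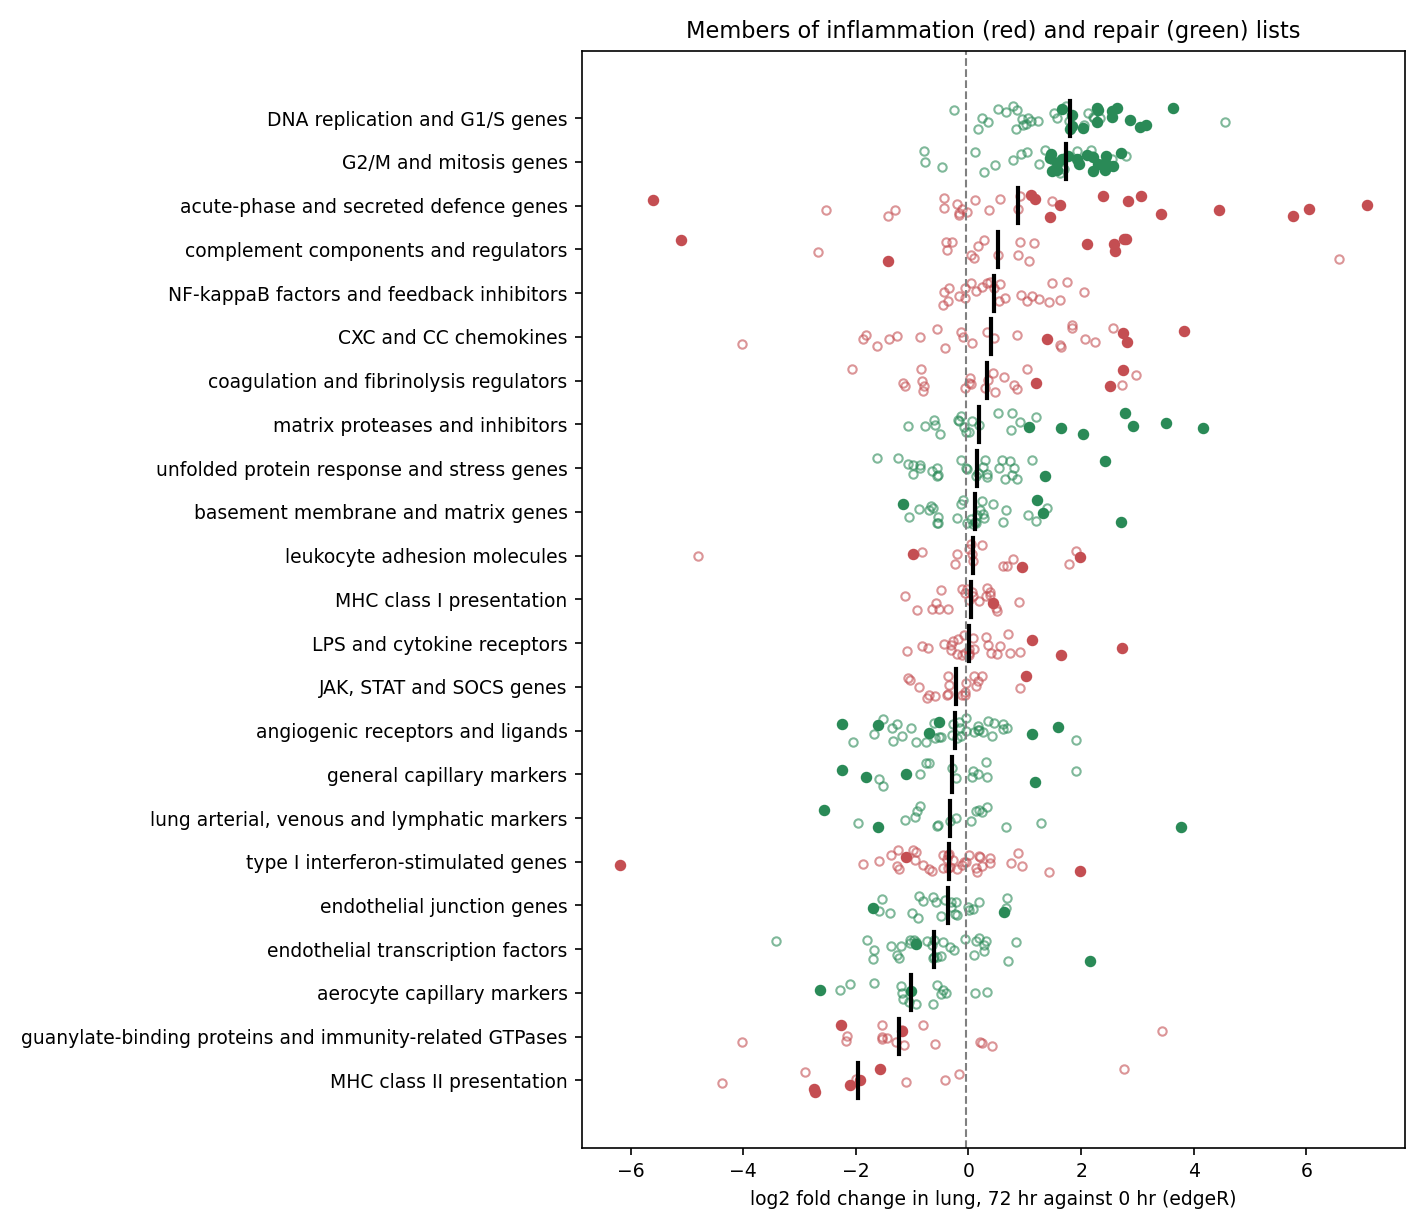
Log2 fold change in lung, 72 hr against 0 hr, of each tested member of the 23 lists of inflammation (red) and repair (green) genes, with filled circles where the 2 groups of 4 libraries do not overlap, black bars at list medians and a dashed line at the median of all genes (-0.04). DNA replication and mitosis genes lie almost wholly to the right (medians 1.80 and 1.73), and MHC class II genes to the left (-1.96).

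Of 29 acute-phase and secreted defence genes tested, Il1r2 alone passed the threshold, 12 had every 72 hr library above every 0 hr library and 1 had every one below, 9 were higher at an unadjusted p under 0.05, and the median log2 fold change was 0.88. Saa3, a serum amyloid A made in inflamed tissue (chr7:46711998-46715700), was at 78.5, 35.2, 11.8 and 2.06 CPM at 0 hr and 2235, 1728, 1740.0 and 2650.3 CPM at 72 hr. With a log2 fold change of 6.05 ± 1.39 SE its adjusted p was 0.0585, and 0.0228 in the libraries with at least 10% of reads on genes. Lcn2, which sequesters bacterial iron carriers, was at 39.2, 55.7, 5.800 and 11.7 CPM at 0 hr and 233, 129, 169 and 1007 CPM at 72 hr (log2 fold change 3.06 ± 0.83 SE), with adjusted p values of 0.146 and 0.0378 in the same order. The protease inhibitor Serpina3n overlapped between the groups, with 1.21 to 5.11 CPM at 0 hr and 4.66 to 14.6 CPM at 72 hr, and the metal-binding Mt1 and Mt2 did not, with Mt1 at 8.39 to 58.6 CPM at 0 hr and 59.8 to 364 CPM at 72 hr and Mt2 at 6.06 to 18.4 CPM at 0 hr and 36.3 to 498 CPM at 72 hr, the highest value being that of replicate 5. Lrg1, at 94.5 to 286 CPM at 0 hr and 130.4 to 229.9 CPM at 72 hr, also overlapped. Saa1 and Serpina3i passed in the libraries with at least 10% of reads on genes, beside Saa3, Lcn2 and Il1r2.

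No chemokine passed the threshold at 72 hr. Their median log2 fold change was 0.39 over 26 genes, and 4 (Cxcl2, Cxcl13, Cxcl16 and Ccl7) had every 72 hr library above every 0 hr library. Cxcl10, a ligand that attracts T cells, was at 0.469, 1.19, 1.16 and 4.11 CPM at 0 hr and 5.98, 1.74, 2.07 and 3.79 CPM at 72 hr, and Cxcl9 at 0.234, 0.596, 0.593 and 1.89 CPM at 0 hr and 1.10, 0.745, 0.173 and 3.11 CPM at 72 hr. In both genes the groups overlapped, with log2 fold changes of 0.45 ± 0.89 SE and -0.14 ± 0.88 SE. The neutrophil attractants Cxcl1 and Cxcl2 differed in that Cxcl1 overlapped, with 0.352 to 7.03 CPM at 0 hr and 5.89 to 39.9 CPM at 72 hr, whereas Cxcl2 did not, with 0 to 1.41 CPM at 0 hr and 3.97 to 12.6 CPM at 72 hr (adjusted p = 0.192). Ccl2, which attracts monocytes, was at 0.637 to 20.2 CPM at 0 hr and 4.57 to 15.6 CPM at 72 hr.

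Adhesion molecules showed no call either. Sele (E-selectin) was at 0 to 1.06 CPM at 0 hr and 0.0248 to 5.01 CPM at 72 hr and Selp (P-selectin) at 0.703 to 4.17 CPM at 0 hr and 3.80 to 16.7 CPM at 72 hr, with log2 fold changes of 1.91 ± 1.44 SE and 1.78 ± 0.91 SE and overlapping groups. Icam1, at 47.9 to 195 CPM at 0 hr and 101 to 201 CPM at 72 hr, and Vcam1, at 85.3 to 123 CPM at 0 hr and 83.5 to 137 CPM at 72 hr, overlapped over most of their range. The sialomucin Cd34 did not overlap, with 409, 800.1, 729 and 316 CPM at 0 hr and 2237, 2934, 1601 and 2013 CPM at 72 hr and a log2 fold change of 1.99 ± 0.73 SE (adjusted p = 0.414, and 0.0373 in the libraries with at least 10% of reads on genes). Over the 17 adhesion genes the median was 0.08. NF-kappaB factors and feedback inhibitors had a median of 0.45 over 25 genes, and in every one of them the groups overlapped. The inhibitors Nfkbia, at 922 to 3604 CPM at 0 hr and 1361 to 2885 CPM at 72 hr, and Tnfaip3, at 3.97 to 38.0 CPM at 0 hr and 7.07 to 60.7 CPM at 72 hr, had log2 fold changes of 0.04 ± 0.76 SE and 0.24 ± 0.77 SE.

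Receptors for LPS and cytokines had a median log2 fold change of 0.02 over 28 genes, with 3 non-overlapping above (Ticam2, Irak3 and Tnfrsf1b). The LPS co-receptors Ly96 and Cd14 were at 13.0 to 25.8 CPM at 0 hr and 24.7 to 43.9 CPM at 72 hr and at 0.923 to 5.33 CPM at 0 hr and 3.22 to 6.47 CPM at 72 hr, with overlapping groups. JAK, STAT and SOCS genes had a median of -0.23 over 20 genes, and Socs3, the feedback inhibitor of interleukin-6 signalling, was at 6.28 to 23.2 CPM at 0 hr and 12.1 to 40.9 CPM at 72 hr with overlapping groups.

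Interferon-stimulated genes had no call at 72 hr. The type I list had a median of -0.34 over 39 genes, and only Irf7, the transcription factor that amplifies interferon production, had every 72 hr library above, with 3.28, 5.41, 6.44 and 19.7 CPM at 0 hr and 36.2, 30.7, 33.7 and 48.2 CPM at 72 hr (log2 fold change 1.98 ± 0.67 SE, adjusted p = 0.354). Ifit1, at 38.4 to 88.7 CPM at 0 hr and 43.0 to 70.3 CPM at 72 hr, and Isg15, at 20.6 to 80.6 CPM at 0 hr and 12.9 to 257 CPM at 72 hr, overlapped. Guanylate-binding proteins and immunity-related GTPases, which attack vacuoles of intracellular pathogens, had a median of -1.23 over 18 genes, 6 lower at an unadjusted p under 0.05 and none past the adjusted threshold. Gbp2 was at 22.3, 15.1, 18.9 and 197 CPM at 0 hr and 8.10, 16.5, 17.1 and 11.1 CPM at 72 hr, so that its fold change of -2.18 ± 0.80 SE rests on 0 hr replicate 4, the 1 high library. Irgm2 had the same high value in that replicate but did not overlap, and was at 23.0, 18.5, 16.5 and 122 CPM at 0 hr and 10.3, 9.83, 11.7 and 9.46 CPM at 72 hr (log2 fold change -2.27 ± 0.79 SE, adjusted p = 0.368). Its relative Irgm1 was at 8.34 to 50.2 CPM at 0 hr and 4.88 to 10.2 CPM at 72 hr. Against 0 hr replicates 1 to 3 alone, the medians of the 2 lists were 0.14 and -0.48, the former turning to the other side of 0.

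Most members of this family share promoter letters that are rare over all genes but less rare in some other lists. The interferon-stimulated response element was searched as GAAA, 2 bases of any kind and GAAA on both strands of the 250 bases before the start. It was found in 10 of the 11 members with a RefSeq promoter (90.9%) and in 3.5% of all 27025 genes with one. Of the type I interferon-stimulated genes, 11 of 31 held it (35.5%). It was also in 20.0% of JAK, STAT and SOCS genes, 15.8% of chemokines and 15.8% of MHC class I genes. The promoter of Gbp2 (chr3:142620413-142620662, + strand, GRCm38.p6) is shown with this motif and the letters TTTGAA in capitals, 5′ to 3′, as an example of a gene that was high at 6 hr and low at 72 hr.
Gbp2: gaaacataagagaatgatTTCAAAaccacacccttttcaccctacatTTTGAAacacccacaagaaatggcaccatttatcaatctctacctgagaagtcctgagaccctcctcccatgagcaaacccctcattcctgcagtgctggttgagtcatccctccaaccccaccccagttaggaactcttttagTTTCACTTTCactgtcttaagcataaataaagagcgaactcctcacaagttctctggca

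MHC class II genes were the list with the lowest median, -1.96 over 12 genes, of which 1 had a positive fold change. In 5 (H2-Aa, H2-Ab1, H2-Eb1, H2-DMa and Cd74) every 72 hr library was below every 0 hr library, and 7 were lower at an unadjusted p under 0.05, but none passed the adjusted threshold. Cd74, the chaperone of these molecules, was at 53.2, 111, 77.6 and 257 CPM at 0 hr and 35.8, 50.7, 13.0 and 12.7 CPM at 72 hr (log2 fold change -2.73 ± 0.84 SE, adjusted p = 0.27). H2-Eb1, a class II beta chain, was at 77.4, 55.2, 48.5 and 171 CPM at 0 hr and 18.4, 16.7, 16.8 and 4.82 CPM at 72 hr (log2 fold change -2.75 ± 0.78 SE), with adjusted p values of 0.192 over all lung libraries and 0.0344 in those with at least 10% of reads on genes. The median stayed under 0 against 0 hr replicate 4 alone and against replicates 1 to 3 (-2.21 and -1.64). The 12 markers of B and plasma cells, which also carry these molecules, summed to 177 to 518 CPM at 0 hr and 72.9 to 206 CPM at 72 hr, with none at 0 in all libraries, and their part in this was not tested. MHC class I genes, for comparison, had a median of 0.04 over 22 genes, and H2-K1 was at 935 to 2131 CPM at 0 hr and 1388 to 2175 CPM at 72 hr.

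Complement genes split in direction, with 5 above and 2 below without overlap and a median of 0.52 over 21 genes. Those above are C1qb, C1qc, C5ar1, C3ar1 and Cfp, genes that are known from macrophages and neutrophils. C1qb was at 10.8, 11.6, 8.70 and 3.06 CPM at 0 hr and 86.9, 47.6, 25.7 and 38.6 CPM at 72 hr (log2 fold change 2.59 ± 0.79 SE). Clu, an inhibitor of the terminal complex, was below, with 47.8, 58.8, 36.8 and 127 CPM at 0 hr and 25.6, 29.8, 28.0 and 15.1 CPM at 72 hr. C3 overlapped, with 52.6 to 203 CPM at 0 hr and 139 to 495 CPM at 72 hr. The 16 markers of monocytes and macrophages summed to 265 to 1110 CPM at 0 hr and 771 to 1666 CPM at 72 hr, and Marco, a scavenger receptor among them, was at 120.0, 125, 12.5 and 2.50 CPM at 0 hr and 966, 638, 647 and 497 CPM at 72 hr (adjusted p = 0.0681). The part of these cells in the complement values was not tested.

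Coagulation and fibrinolysis regulators had a median of 0.32 over 24 genes. Procr, the endothelial protein C receptor, was at 4.92, 6.26, 2.77 and 14.1 CPM at 0 hr and 25.4, 27.6, 35.8 and 120.5 CPM at 72 hr. All 72 hr libraries lay above those at 0 hr (log2 fold change 2.74 ± 0.66 SE), with adjusted p values of 0.0681 over all lung libraries and 0.018 in those with at least 10% of reads on genes. Thbd (thrombomodulin), the anticoagulant partner of Procr on ECs, overlapped, with 539, 779, 1333 and 2876 CPM at 0 hr and 441, 475, 1829 and 383 CPM at 72 hr.

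DNA replication and cell division genes were the repair lists with the highest medians. Of 40 DNA replication and G1/S genes tested, 39 had a positive fold change, 15 had every 72 hr library above every 0 hr library, 20 had an unadjusted p under 0.05, and the median was 1.80. Of 42 G2/M and mitosis genes the numbers were 39, 18 and 15, with a median of 1.73. Only Uhrf1 passed the adjusted threshold. The cell type that these transcripts come from was not tested. In libraries with at least 10% of reads on genes, E2f1, Tyms, Mcm10, Hells, Chaf1a and Uhrf1 of the former list and Cdc20, Ccna2 and Tacc3 of the latter passed. The medians were 1.40 and 1.22 against the 0 hr library with Xist above Ddx3y and 1.38 and 1.73 against the other 3. By library series, a grouping read from the pattern of the deposited names, they were 2.26 and 2.01 within series 1 and 1.20 and 1.75 within series 2. Series 4 holds 72 hr replicate 5 and no 0 hr library.

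The promoters of these lists hold short motifs that also occur in other lists, given here as a description. CCAAT, the box bound by NF-Y, was found on either strand in 30 of 38 G2/M genes (78.9%) and 20 of 33 G1/S genes (60.6%), against 37.5% of all genes. The letters TTTGAA of the cell cycle genes homology region were found in 15 of 38 G2/M genes (39.5%) against 18.3% of all, and the E2F letters TTTNNCGC (N is any base) in 8 of 33 G1/S genes (24.2%) against 4.9%. CCAAT was as frequent in MHC class II genes (88.9%) and stress genes (80.0%). TTTGAA was found in 45.5% of guanylate-binding proteins and immunity-related GTPases, and the E2F letters in 18.2% of general capillary markers. The motifs are therefore not particular to the division lists. A G1/S gene, Uhrf1 (chr17:56303087-56303336, + strand), and 2 G2/M genes, Cdk1 (chr10:69352913-69353162, - strand) and Top2a (chr11:99024190-99024439, - strand), are shown from the RefSeq promoters of GRCm38.p6, 5′ to 3′, with matches to these 3 motifs in capitals on either strand. RefSeq lists another start for Uhrf1, which is not shown.
Uhrf1: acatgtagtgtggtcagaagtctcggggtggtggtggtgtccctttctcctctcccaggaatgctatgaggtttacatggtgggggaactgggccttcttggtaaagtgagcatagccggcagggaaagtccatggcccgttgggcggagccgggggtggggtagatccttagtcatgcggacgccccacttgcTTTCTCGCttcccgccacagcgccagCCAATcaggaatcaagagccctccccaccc
Cdk1: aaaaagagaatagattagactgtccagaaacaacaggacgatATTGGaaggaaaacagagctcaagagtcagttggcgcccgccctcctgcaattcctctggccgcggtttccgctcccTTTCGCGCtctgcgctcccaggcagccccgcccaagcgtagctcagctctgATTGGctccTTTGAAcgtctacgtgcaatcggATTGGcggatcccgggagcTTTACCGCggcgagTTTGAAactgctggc
Top2a: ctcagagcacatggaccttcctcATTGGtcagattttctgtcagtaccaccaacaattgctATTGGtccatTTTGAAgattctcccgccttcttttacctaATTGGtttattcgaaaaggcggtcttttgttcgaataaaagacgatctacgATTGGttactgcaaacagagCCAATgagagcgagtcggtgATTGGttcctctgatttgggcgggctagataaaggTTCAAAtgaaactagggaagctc

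Uhrf1, which carries DNA methylation over to newly made strands, was at 4.69, 2.09, 3.38 and 3.11 CPM at 0 hr and 13.4, 45.9, 49.1 and 32.3 CPM at 72 hr. Its log2 fold change was 3.63 ± 0.81 SE, adjusted p = 0.0493, and the call was lost whichever of the 8 libraries was left out. Mcm5, a subunit of the replicative helicase, was at 10.1, 7.75, 7.78 and 5.39 CPM at 0 hr and 20.6, 30.0, 49.8 and 20.1 CPM at 72 hr (log2 fold change 2.04 ± 0.74 SE), and E2f1, the S phase transcription factor, was at 15.9, 14.8, 11.5 and 3.17 CPM at 0 hr and 53.9, 97.4, 74.3 and 28.6 CPM at 72 hr (log2 fold change 2.64 ± 0.60 SE, adjusted p = 0.0585). Orc1, a subunit of the origin recognition complex that is on none of the lists, had 2 counts in all at 0 hr and was at 1.38, 1.76, 8.64 and 2.44 CPM at 72 hr (adjusted p = 0.0247). It held in 2 of the 8 fits without a library, and an antisense gene shares 376 bases of its exons. Mki67, the proliferation marker Ki-67, was at 15.2, 12.5, 31.5 and 8.22 CPM at 0 hr and 52.7, 94.7, 96.2 and 33.2 CPM at 72 hr (log2 fold change 2.21 ± 0.79 SE, adjusted p = 0.408). The groups did not overlap, although 0 hr replicate 3 came close to 72 hr replicate 5. Top2a, which untangles replicated DNA, was at 0.938, 1.64, 1.14 and 4.22 CPM at 0 hr and 5.70, 12.3, 22.8 and 6.35 CPM at 72 hr (log2 fold change 2.70 ± 0.87 SE). Cdk1, the kinase that starts mitosis, overlapped, with 10.6, 4.02, 8.31 and 6.89 CPM at 0 hr and 8.92, 27.7, 149.9 and 18.3 CPM at 72 hr, the highest value being that of replicate 3. Foxm1, which drives mitotic genes, was at 0.596 to 1.11 CPM at 0 hr and 1.38 to 5.83 CPM at 72 hr, and Ccnb1 (cyclin B1) was at 0 to 0.571 CPM at 0 hr and 0.427 to 1.79 CPM at 72 hr.

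Of the markers of capillary cells, arteries, veins and lymphatics, Ackr1, described above, rose and no other passed the threshold. Markers of aerocytes had a median of -1.02 over 17 genes, with 2 below without overlap, and markers of general capillary cells a median of -0.30 over 17 genes, with 3 below and 1 above. Cyp4b1, an aerocyte marker and fatty acid hydroxylase, was at 67.8, 91.7, 95.7 and 602 CPM at 0 hr and 29.7, 23.6, 25.6 and 43.5 CPM at 72 hr (log2 fold change -2.64 ± 0.67 SE, adjusted p = 0.0983, and 0.0458 with at least 10% of reads on genes). Its 0 hr range was set mostly by replicate 4, while the other 0 hr libraries also lay above those at 72 hr. The endothelin receptor Ednrb was at 21.1, 23.1, 48.6 and 74.2 CPM at 0 hr and 36.5, 28.4, 8.98 and 6.29 CPM at 72 hr, where 72 hr replicates 3 and 5 were low and replicates 1 and 2 were not. The carbonic anhydrase Car4, at 280.4 to 671 CPM at 0 hr and 213 to 456 CPM at 72 hr, overlapped. Among the markers of general capillary cells, Kit, a growth factor receptor, was at 116, 56.3, 88.8 and 266 CPM at 0 hr and 24.7, 29.9, 50.4 and 38.6 CPM at 72 hr (log2 fold change -1.82 ± 0.64 SE, adjusted p = 0.391, and 0.0489 with at least 10%). Gpihbp1, at 439 to 896 CPM at 0 hr and 384 to 1434 CPM at 72 hr, and Tspan8, at 66.5 to 181 CPM at 0 hr and 53.1 to 164 CPM at 72 hr, overlapped. Plvap, the diaphragm protein of fenestrae and caveolae, was below, with 275 to 1061 CPM at 0 hr and 182 to 271 CPM at 72 hr (adjusted p = 0.926). Markers of arteries, veins and lymphatics had a median of -0.33 over 19 genes, -0.68 within series 1 and 0.22 within series 2. Against 0 hr replicates 1 to 3 alone, the medians were -0.86 for aerocytes, -0.26 for general capillary cells and -0.11 for this list, and with the sex of the library as covariate that of aerocytes was -0.45, where the median of all genes tested was 0.29.

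Endothelial transcription factors had a median of -0.61 over 33 genes, and -0.34 against 0 hr replicates 1 to 3 alone. Foxf1, which specifies lung endothelium, was at 114, 115, 169.6 and 604 CPM at 0 hr and 47.0, 76.5, 142 and 125 CPM at 72 hr, a range set mostly by 0 hr replicate 4, and Sox17 at 12.8 to 84.4 CPM at 0 hr and 21.3 to 34.4 CPM at 72 hr. Bcl6b did not overlap, with 78.3, 165, 178 and 59.5 CPM at 0 hr and 441, 531, 379 and 480.0 CPM at 72 hr (log2 fold change 2.16 ± 0.76 SE, adjusted p = 0.391, and 0.0222 with at least 10%). Junction genes had a median of -0.37 over 24 genes, and -0.15 against the same 3 libraries. Cdh5 (VE-cadherin) was at 219 to 1493 CPM at 0 hr and 146 to 814 CPM at 72 hr and Pecam1 at 723 to 1931 CPM at 0 hr and 1042 to 1495 CPM at 72 hr, with overlap, while Cldn5, the tight junction claudin, was at 3262, 4384, 3466 and 1988 CPM at 0 hr and 7281, 5020.0, 4817 and 5001 CPM at 72 hr without overlap (log2 fold change 0.64 ± 0.85 SE, adjusted p = 1). Angiogenic receptors and ligands had a median of -0.24 over 40 genes, with 2 above and 4 below. Kdr (VEGF receptor), at 118 to 307 CPM at 0 hr and 78.3 to 126 CPM at 72 hr, Tek (the angiopoietin receptor), at 251 to 609.8 CPM at 0 hr and 120.3 to 324 CPM at 72 hr, Angpt2, at 16.9 to 44.4 CPM at 0 hr and 28.5 to 138 CPM at 72 hr, and Apln, at 133 to 430.2 CPM at 0 hr and 24.3 to 339 CPM at 72 hr, all overlapped. Aplnr, the receptor of Apln, did not, with 20.6, 22.0, 21.0 and 39.4 CPM at 0 hr and 2.21, 8.88, 7.43 and 1.53 CPM at 72 hr (log2 fold change -2.25 ± 0.74 SE, adjusted p = 0.336).

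Among 25 matrix proteases and inhibitors 7 were above without overlap, with a median of 0.18, and besides Mmp9 they include Mmp8, a neutrophil collagenase that is also among the neutrophil markers, Mmp14, a membrane-bound collagenase, and Timp1. Timp1, an inhibitor of these enzymes, was at 44.5, 14.7, 9.45 and 3.22 CPM at 0 hr and 82.2, 89.8, 208 and 199.9 CPM at 72 hr (log2 fold change 2.91 ± 0.78 SE), with adjusted p values of 0.139 over all lung libraries and 0.0344 with at least 10%. Mmp14 was at 182, 351, 331 and 46.8 CPM at 0 hr and 1462, 1055, 558 and 549 CPM at 72 hr (log2 fold change 2.04 ± 0.70 SE, adjusted p = 0.367). Basement membrane and matrix genes had a median of 0.12 over 31 genes, with the collagens Col4a1, Col4a2 and Col18a1 above and the elastic fibre protein Fbln5 below without overlap. Col4a1, a chain of basement membrane collagen, was at 133, 137, 147 and 276 CPM at 0 hr and 473, 352, 344 and 419 CPM at 72 hr (log2 fold change 1.23 ± 0.63 SE, adjusted p = 0.729). Unfolded protein response and stress genes had a median of 0.15 over 30 genes. Hmox1, which degrades haem, was at 57.7, 25.2, 25.8 and 19.7 CPM at 0 hr and 95.4, 137, 243 and 201 CPM at 72 hr (log2 fold change 2.43 ± 0.58 SE, adjusted p = 0.0652, and 0.00157 with at least 10%).

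In the time course, Saa3 and S100a8 had medians above their 0 hr range from 6 to 72 hr, and Mki67 and Top2a had their highest medians at 168 hr. Xist was above Ddx3y in 1 of 4 libraries at 0 hr, 2 of 4 at 6 hr and 2 of 2 at 24 hr. The numbers were 0 of 6 at 48 hr and 4 of 4 at both 72 hr and 168 hr. Sex by these genes thus shifts along the time course, also between 6 hr and 72 hr, and its part there was not tested. The lung was compared with its 0 hr libraries at each time, so these contrasts share their controls. They gave 436 genes higher (2.56%) and 388 lower (2.27%) at 6 hr, 62 (0.363%) and 2 (0.0117%) at 24 hr, 73 (0.428%) and 29 (0.17%) at 48 hr, and 0 (0%) and 2 (0.0117%) at 168 hr. Saa3 was at 70.3 to 14928 CPM in 4 libraries at 6 hr, 4084 to 12742 CPM in 2 at 24 hr, 793 to 6227 CPM in 6 at 48 hr and 0.693 to 65.0 CPM in 4 at 168 hr, where it overlapped its 0 hr range. At 168 hr S100a8 was at 3.28 to 47.5 CPM, and Il1r2 at 0.126 to 1.77 CPM. Stfa2 was at 0 in all 6 hr and 168 hr libraries and at 1.31 to 6.16 CPM at 24 hr and 0.555 to 70.6 CPM at 48 hr. Cyp1a1 was at 38.8 to 111 CPM at 168 hr, overlapping its 0 hr libraries. Mki67 was at 43.8 to 177 CPM and Top2a at 22.8 to 52.9 CPM at 168 hr, and the G2/M median log2 fold change was 3.38 there against 0.59 for G1/S genes. None of the genes on either division list passed the threshold at 168 hr.

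**Figure D3:**
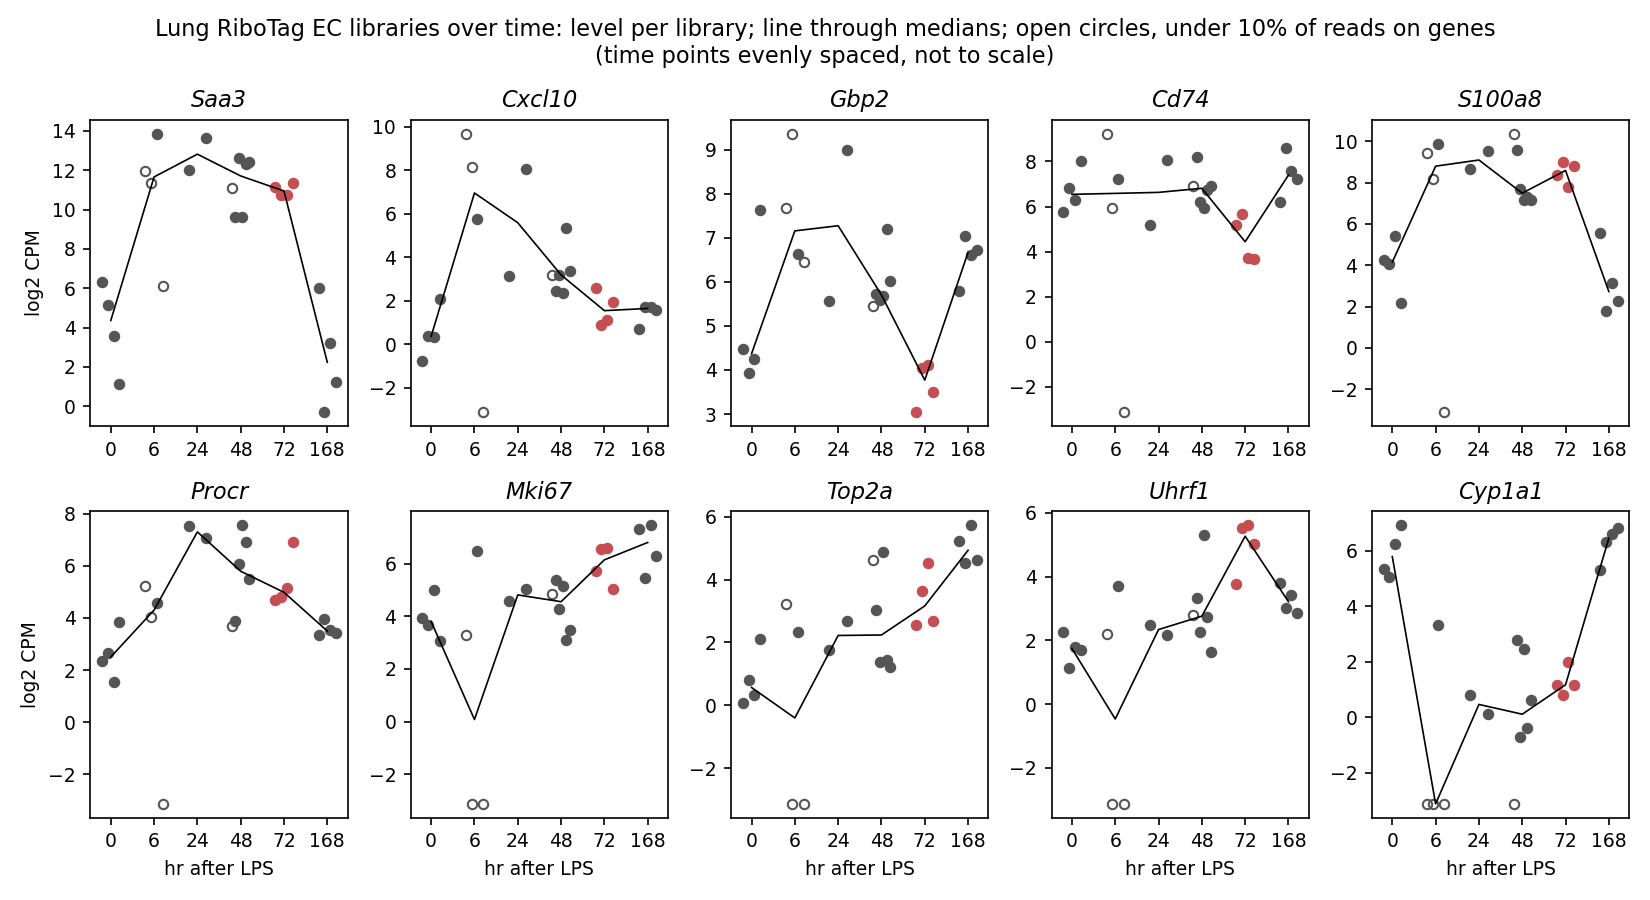
Level per library as log2 CPM (prior count 2) of 10 genes in the 24 lung RiboTag EC libraries by hr after LPS, evenly spaced and not to scale, with 72 hr in red, lines through the medians and open circles for libraries with under 10% of reads on genes. The medians of Cxcl10 and Gbp2 are highest at 6 and 24 hr and that of Gbp2 is lowest at 72 hr, Saa3 and S100a8 stay high to 72 hr and are low at 168 hr, and Mki67 and Top2a are highest at 168 hr.

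The direct comparison of 72 hr with 6 hr gave 256 genes higher (1.5%) and 299 lower (1.75%). It rests on 6 hr libraries of which 3 of 4 had under 10% of reads on genes and 3760 to 11248 genes with a count. Lower at 72 hr were 18 of 39 interferon-stimulated genes, 10 of 26 chemokines, 9 of 18 guanylate-binding proteins and immunity-related GTPases and 8 of 29 acute-phase genes. Cxcl10 fell by 6.66 on the log2 scale (adjusted p = 0.00163), Cxcl9 fell by 6.64 (adjusted p = 0.00163) and Gbp2 fell by 4.66 (adjusted p = 0.00483). With the 1 remaining 6 hr library that had at least 10%, which is then assumed to vary like the other groups, the counts were 14, 3, 6 and 2 in the same order. Thbd and Tspan8, in turn, were higher at 72 hr than at 6 hr, by 4.36 and 3.51 on the log2 scale (adjusted p = 0.0171 and 0.0293). In 6 hr replicates 1, 2, 3 and 4, Thbd was at 19.3, 0, 47.3 and 106 CPM. Tspan8 was at 0, 0, 18.5 and 17.6 CPM there, so both rises rest partly on shallow libraries without a count. Of the DNA replication and G1/S genes 5 rose from 6 hr to 72 hr, and none did with that 1 library. Leaving out 6 hr replicate 3, the deep one, gave totals of 3950 higher and 1162 lower, and leaving out 72 hr replicate 3 gave 21 and 45.

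The lung response was also set against that of heart and brain ECs at the same 72 hr, as a difference of responses in 1 fit of 80 libraries, 9 of them heart and 9 brain libraries at 0 hr and 72 hr. The common dispersion of this fit was 0.242, against 0.580 for the lung libraries alone. Its adjusted p values thus rest on a smaller spread than that of lung. The labels do not say which libraries of different tissues share a mouse. The fit has no term for the mouse, so it treats the tissues as independent. For lung 72 hr against 0 hr it called 757 genes higher and 874 lower, where the lung fit called 29 and 4. In heart and in brain, Xist was above Ddx3y in 1 of 5 libraries at 0 hr and 4 of 4 at 72 hr. Sex and time are thus mixed in these tissues too. Of 22007 genes, 10 had a higher response in lung than in heart (0.0454%) and 24 a lower one (0.109%), and for brain the numbers were 33 (0.15%) and 50 (0.227%). Pla2g7 had the higher response in lung, with a log2 response of 3.90 in lung, 0.82 in heart and -0.35 in brain (difference from heart 3.08 ± 0.73 SE and from brain 4.24 ± 0.74 SE, adjusted p = 0.0498 and 0.00229). Ankrd63 was the reverse against heart, with -3.74 in lung and 2.44 in heart (adjusted p = 0.000245). C3, the central complement component, responded by 0.99 in lung and 6.04 in brain (adjusted p = 0.00229). Of the list genes, Cdc20 responded more in lung than in heart (2.27 against -1.19, adjusted p = 0.0357), and Cx3cl1, Clu and Serpina3g less. Orc1, which is on no list, also responded more than in heart (adjusted p = 0.00863). Against brain, C1ra, Mmp3, Ctnnd1, Ecscr, Mustn1 and Marco responded less and the neutrophil marker Ngp more. Cyp4b1 also responded less than in brain (-2.79 against 1.72, adjusted p = 0.00131). The G2/M list had medians of 1.57 in lung, -0.83 in heart and 3.35 in brain in this fit, values that were not tested as lists.

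**Figure D4:**
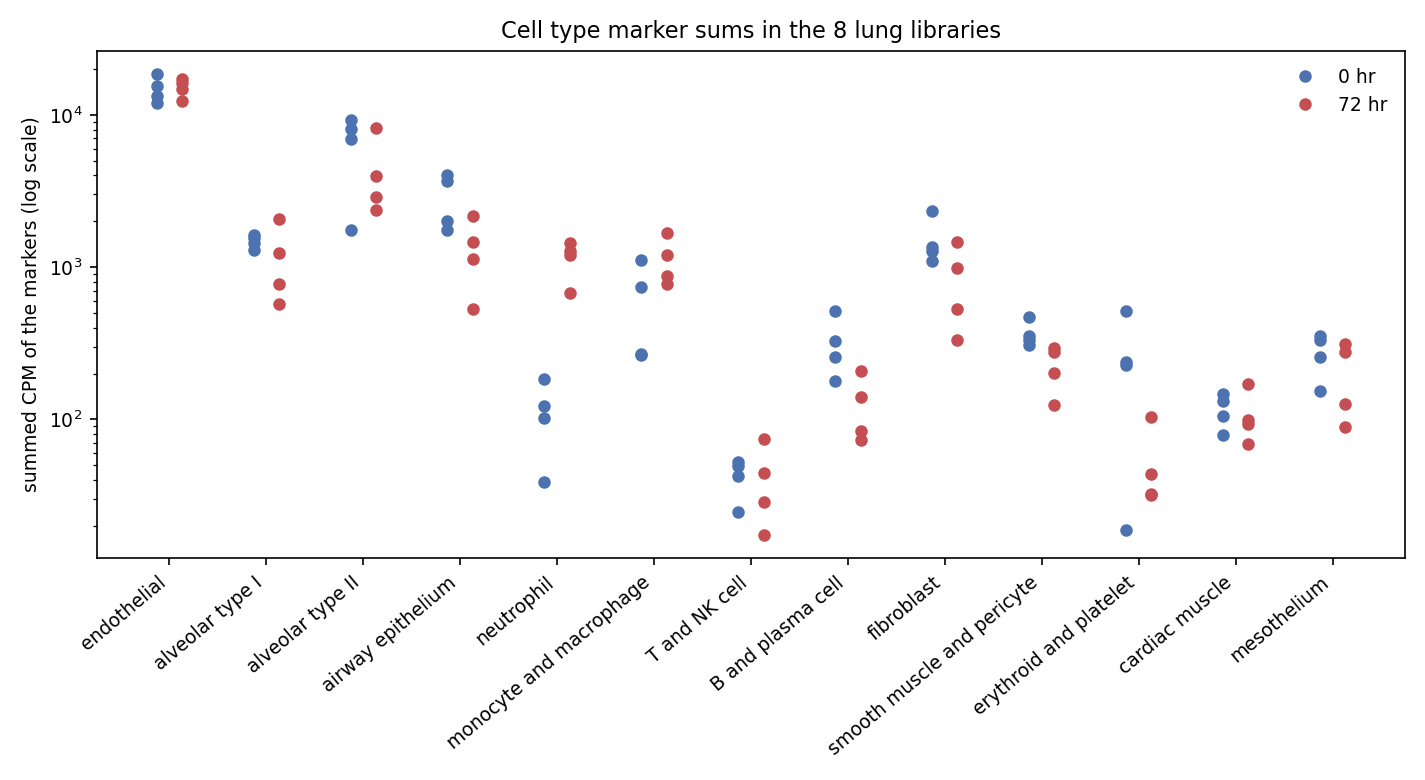
Summed CPM (log scale) of the markers of 13 cell types in the 8 lung libraries, 0 hr in blue and 72 hr in red, 1 point per library. Endothelial sums overlap (11976 to 18576 and 12367 to 17300 CPM), neutrophil sums do not (39.1 to 185 and 673 to 1436 CPM), and several stromal, epithelial and lymphoid sums extend lower at 72 hr.

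Among the other marker sums, that of smooth muscle and pericytes was 310.2 to 467 CPM at 0 hr and 124 to 295 CPM at 72 hr, without overlap, and that of fibroblasts 1104 to 2326 CPM at 0 hr and 334 to 1452 CPM at 72 hr, with overlap. Alveolar type I markers summed to 1288 to 1633 CPM at 0 hr and 576 to 2058 CPM at 72 hr, with Pdpn at 0 in all 8 libraries, and airway epithelium markers to 1750.0 to 4028 CPM at 0 hr and 528 to 2160.0 CPM at 72 hr. T and NK cell markers were at 24.7 to 52.8 CPM at 0 hr and 17.3 to 74.4 CPM at 72 hr. Erythroid and platelet markers were at 18.9 to 516 CPM at 0 hr and 31.7 to 104 CPM at 72 hr, cardiac muscle markers at 78.8 to 147 CPM at 0 hr and 68.9 to 171 CPM at 72 hr and mesothelial markers at 154 to 351 CPM at 0 hr and 89.3 to 312 CPM at 72 hr. Of all 13 marker lists, only that of neutrophils had members past the threshold, 3 (S100a8, Retnlg and Stfa2l1) of 13 tested.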

How the data were processed

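RNA from HA-tagged ribosomes of lung was sequenced, and the authors aligned the reads with STAR 2.4.2 to mm10 and deposited counts per Ensembl gene and run, made with HTSeq-count 0.6.1. The strand setting is not given in the sources used here. Here 63 lung runs were summed to 30 libraries, of which 24 had at least 3% of reads on genes, and rows that name no gene were left out of library sizes. Counts were scaled by TMM and tested with edgeR 4.0.16 (limma 3.58.1, R 4.3.3), using filterByExpr and the quasi-likelihood test over all 24 lung libraries, with time point as group and library series (the naming pattern of the deposited data, not a labelled batch) as covariate, and Benjamini-Hochberg adjustment over all genes tested. Levels are CPM, log2 values use a prior count of 2, and folds against groups with no count use 3 counts. DESeq2 1.42.0, limma-voom, ComBat (sva 3.50.0), other filters, scalings and left-out libraries were alternatives. Gene positions are from GENCODE on GRCm38. One named gene is not reported here.

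The members and lists were chosen with earlier results of these data known. Genes were named where they stood on a hand-written list, among the 10 largest rises or falls past the threshold without overlap and above a mean level of 3 (log2 CPM), or among the 3 of lowest p past the threshold in a list. The others, such as the remaining genes past the threshold and Hmox1, Mmp8, Mmp14, E2f1, Cd34, Bcl6b, Kit, Cyp4b1, Aplnr, Irgm2, Marco and C1qb, were chosen after their values were seen. The steps were tested on simulated data for lung 72 hr against 0 hr, over 16249 genes. The changed genes were drawn only from those with a mean level of at least 3 (log2 CPM), and no effect of series or sex was simulated. Of these, 1.8% of genes changed by a log2 of 1 were called, 12.9% at 2 and 64% at 3, with 1.7% of the calls false. These shares describe the simulated data only. The false share among the calls in the real libraries, in which sex and time are mixed, was not tested. RefSeq promoters of GRCm38.p6 were found for 65 of 84 named or called genes.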

Additional observations from a re-analysis of the deposited data

Results flagged for a closer look

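Of 134 groups of 4 lung libraries (67 named genes at 0 hr and 72 hr), 8 held a library whose gap to its nearest neighbour, divided by the range, was above Dixon's 95% critical value, and chance gives about 1 in 20. In 0 hr replicate 4, log2 CPM stood apart in Gbp2 at 7.62 (nearest 4.48), Col4a1 at 8.11 (nearest 7.20) and, on the low side, Rps19 at 3.55 (nearest 5.22). In 72 hr replicate 5 it stood apart in Lrg1 at 7.85 (nearest 7.10), Mt2 at 8.96 (nearest 5.81) and, on the low side, Vcam1 at 6.39 (nearest 7.02). Thbd was at 10.84 in 72 hr replicate 3 (nearest 8.89), and Cldn5 at 12.83 in 72 hr replicate 1 (nearest 12.29).

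The response at 72 hr differed between tissues, by a test of the difference in edgeR, in the following genes among those named by rule, past the threshold in lung or on a list. Pla2g7 differed by 3.08 on the log2 scale between lung and heart (adjusted p = 0.0498) and by 4.24 between lung and brain (adjusted p = 0.00229). Ankrd63 differed by -6.18 between lung and heart (adjusted p = 0.000245), with opposite signs in the 2 tissues. C3 differed by -5.05 between lung and brain (adjusted p = 0.00229), being positive in both. Between lung and heart, Cdc20 differed by 3.47, Cx3cl1 by -3.14, Serpina3g by -4.11 and Clu by -2.21. Orc1 differed by 6.53 between lung and heart, a fitted value that depends on the prior count, since it had 2 counts in lung at 0 hr. Between lung and brain, Cyp4b1 differed by -4.51, C1ra by -3.54, Ctnnd1 by -1.86, Mmp3 by -5.59, Ecscr by -2.40, Mustn1 by -2.58, Marco by -6.58 and Ngp by 4.87. For Orc1, the 4 genes named before it and the 8 genes against brain named after it, adjusted p was 0.00131 to 0.0498.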

How the results depend on the processing

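The counts for 72 hr against 0 hr moved widely. The 29 higher and 4 lower genes became 219 and 111 with DESeq2, 63 and 7 with limma-voom, 87 and 35 with no low-count filter, 129 and 54 with at least 10% of reads on genes, 12 and 1 in library series 1 and 2 alone, 165 and 60 with sex as covariate and 757 and 874 from the fit of all 3 tissues. Leaving out 1 library gave 10 to 31 higher and 1 to 4 lower, with 12 higher without 0 hr replicate 2, 10 without replicate 3, 18 without replicate 4, 16 without 72 hr replicate 3 and 14 without replicate 5. List genes, 1 higher of inflammation and 3 of repair and none lower, became 12 and 17 higher and 2 and 2 lower with DESeq2, 5 and 6 higher with limma-voom, 3 and 0 with ComBat, 10 and 7 higher and 3 and 1 lower with no filter, 9 and 17 higher and 1 and 2 lower with at least 10%, 9 and 11 higher and 4 and 1 lower with sex as covariate, and 18 and 42 higher and 18 and 17 lower in all 3 tissues. Repair calls were 1 without library series and 0 in series 1 and 2 alone. Without 1 library they were 0 to 3, and inflammation calls 1 to 2.

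For 72 hr against 6 hr, 256 higher and 299 lower became 775 and 1490 with DESeq2, 451 and 899 with no filter and 5 and 55 with at least 10%, 7968 higher with ComBat, 486 higher with all libraries and 713 lower with RLE scaling. Without 1 library they were 21 to 3950 and 35 to 1162, and leaving out any of the 8 moved the higher count by over 1.5 times. Lung minus heart, 10 and 24, became 3 and 8 without series, 29 and 69 with series within each tissue and 150 and 180 with no filter, 4 lower with limma-voom, and 4 to 16 and 11 to 43 without 1 library. Lung minus brain, 33 and 50, became 14 and 29 without series, 271 and 303 with no filter, 13 and 12 with limma-voom, and 13 to 78 and 30 to 171 without 1 library. The cause was not tested.

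With the replicate number as a block, the pairing gave 35 higher and 10 lower against 0 hr, 3 inflammation genes higher, and 35 and 18 against 6 hr. Same-numbered libraries at 0 hr and 72 hr correlated at 0.056, 0.118 and -0.014 in their deviations from the group means. Differently numbered ones correlated at -0.236 to 0.277. The values thus gave no sign that the numbers pair the libraries, but so few pairs cannot exclude it. Of 1470 alternatives for 67 named genes, 1249 kept direction and side of the threshold, 125 lost it, 38 gained it and none reversed a call, while 58 changed sign with neither value past the threshold. No replicate check tells sex from time beyond 0 hr replicate 4, and 3 of the 4 libraries at 6 hr are shallow.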
